A study of Mus musculus with 21 samples.

Results

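The solute carrier genes of the monocarboxylate transporter family (Slc16) were described in mammary tumours of transgenic mice. The 8 genes were Slc16a1, Slc16a3, Slc16a6, Slc16a7, Slc16a9, Slc16a10, Slc16a12 and Slc16a13. All probes annotated to them were selected by gene symbol, which gave 15 of the 45220 features and 8 of the 19087 genes of the deposited value table. The family was chosen because of Slc16a9, whose log2 ratio differed most between transgenes among these genes. The differences of Slc16a9 between transgenes are therefore given as a description, with no test.

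The mice carried MMTV-ATX (5 animals), MMTV-LPA1 (5), MMTV-LPA2 (5) and MMTV-LPA3 (5), and each gave 1 tumour. ATX, or autotaxin, is secreted and produces lysophosphatidic acid, a lipid for which LPA1, LPA2 and LPA3 are receptors. All 4 transgenes were driven by the MMTV promoter, which is active mainly in mammary epithelium, and the labels give no strain, age or founder line. Each tumour was hybridised in Cy5 against whole-mouse total RNA in Cy3, with no dye swap and no normal mammary gland, and every value below is the log2 ratio of tumour over that reference unless a difference between transgenes is named.

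Members of the Slc16 family share a fold of membrane-spanning helices and carry different small molecules. A few of them move lactate, pyruvate and ketone bodies together with a proton, and these need a partner glycoprotein, basigin or embigin, to reach the cell surface. Others carry aromatic amino acids, carnitine or creatine, and for several the substrate is less well defined.

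Promoter windows are shown for the members on which the results turn and for which a RefSeq entry was matched (GRCm38.p6, 250 bases before to 50 bases after the gene start). Of the 8 genes, 5 had an entry, namely Slc16a1, Slc16a3, Slc16a9, Slc16a10 and Slc16a12. Slc16a9 is shown because it differed most between transgenes, Slc16a10 because it ran the other way, and Slc16a3 because it lay farthest below the reference. The first window is chr10:70245026-70245325 (plus strand), the second chr10:40142205-40142504 (minus strand) and the third chr11:120948817-120949116 (plus strand), each written from its 5′ end. Capitals mark GGTCA, the core of an oestrogen response half-site, in the first 2 windows and ACGTG, the core of a hypoxia response element, in the third, on either strand.
Slc16a9: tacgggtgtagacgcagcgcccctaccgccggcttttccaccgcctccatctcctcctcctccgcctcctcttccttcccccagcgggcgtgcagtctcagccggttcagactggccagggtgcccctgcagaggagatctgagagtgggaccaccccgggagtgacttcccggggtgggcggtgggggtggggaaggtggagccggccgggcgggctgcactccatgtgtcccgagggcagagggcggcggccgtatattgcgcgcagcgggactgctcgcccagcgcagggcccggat
Slc16a10: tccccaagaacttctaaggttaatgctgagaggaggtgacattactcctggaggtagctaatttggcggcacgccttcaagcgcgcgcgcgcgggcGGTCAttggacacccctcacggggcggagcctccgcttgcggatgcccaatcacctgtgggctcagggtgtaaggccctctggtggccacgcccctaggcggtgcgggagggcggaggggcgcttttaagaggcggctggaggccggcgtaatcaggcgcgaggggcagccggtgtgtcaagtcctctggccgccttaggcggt
Slc16a3: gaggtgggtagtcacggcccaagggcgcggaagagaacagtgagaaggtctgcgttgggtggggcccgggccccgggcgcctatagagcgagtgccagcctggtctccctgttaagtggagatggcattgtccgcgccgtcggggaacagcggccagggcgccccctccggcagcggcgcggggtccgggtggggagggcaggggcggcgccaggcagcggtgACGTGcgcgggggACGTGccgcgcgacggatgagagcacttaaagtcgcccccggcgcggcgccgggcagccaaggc
The motifs were chosen after the values were seen. GGTCA had 0 matches in the Slc16a9 window and 1 in the Slc16a10 window, and 40.5% of the 32851 promoter windows of 300 bases held it. It had 0 matches in the Slc16a3 window, 1 in that of Slc16a1 and 2 in that of Slc16a12. ACGTG, counted on both strands, had 2 matches in the Slc16a3 window, 3 in that of Slc16a1 and 2 in that of Slc16a12. In each of the Slc16a1 and Slc16a12 windows, 2 of these matches overlap as 1 CACGTG read on opposite strands. The 2 matches in the Slc16a3 window do not overlap. ACGTG had 0 matches in the windows of Slc16a9 and Slc16a10, and 19.6% of all windows held it. TTCNNNGAA, the core bound by STAT factors, had 0 matches in each of the 5 windows, against 8.3% of all windows. A match is a description of the letters and not a shown binding site.

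The arrays fell into 2 sets by slide, which was inferred from a number in the array titles. The 7 arrays of slides 5 and 6 had narrower log2 ratios (SD 0.825 to 0.903) than the 14 arrays of the other slides (1.19 to 1.43). Slides 5 and 6 held 0 ATX, 3 LPA1, 3 LPA2 and 1 LPA3 tumours, so the slide set is partly confounded with the transgene, and values within slide sets stand beside the results below. The tumour of LPA1 mouse 4 was on 2 arrays, whose log2 ratios differed with an SD of 0.885 over all genes and by 0.08 for Slc16a9. As a check of the labelled tissue, 10 of 11 luminal epithelium markers were called above the reference, where 25.7% of all genes were called higher. The other marker, the epithelial cadherin Cdh1, was called lower (−0.81, adjusted p = 0.000994 by limma, below the reference in 17 of 20 tumours). In bulk tumour, fewer cells of a type and less RNA per cell cannot be told apart.

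Slc16a9 encodes a transporter linked to carnitine export in human studies. It was highest in ATX tumours, next in LPA1 tumours, then in LPA2, and lowest in LPA3 tumours. The 5 ATX tumours, from mouse 1 to mouse 5, had 1.45, 2.05, 1.66, 2.09 and 1.75. The 5 LPA1 tumours had 0.90, 1.11, 1.92, 0.57 and 0.99. All 10 of these tumours lay above the reference, and the ranges of the ATX and LPA1 groups overlapped through LPA1 mouse 3.

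The LPA2 tumours had Slc16a9 log2 ratios of 0.61, 0.97, 0.32, −0.94 and 0.10. The LPA3 tumours had −1.01, −0.40, −0.92, −0.45 and −2.00. All 5 LPA3 tumours lay below the reference, and their range overlapped that of the LPA2 group only through LPA2 mouse 4, whereas it was separate from the ATX and LPA1 ranges. The group means were 1.80 ± 0.27 in ATX, 1.10 ± 0.50 in LPA1 tumours, 0.21 ± 0.72 in LPA2 tumours and −0.96 ± 0.65 in LPA3 tumours (SD, n = 5 each). Of the 15 receptor tumours, 14 lay below the lowest ATX tumour.

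The Slc16a9 difference was 2.76 for ATX minus LPA3, 1.59 for ATX minus LPA2 and 0.70 for ATX minus LPA1 (SE 0.35 each), all on the log2 scale. Among the receptors it was −2.05 for LPA3 minus LPA1, −1.17 for LPA3 minus LPA2 and −0.89 for LPA2 minus LPA1. Differences between neighbours and between groups farther apart moved with the setting. Over all alternatives run, ATX minus LPA3 lay between 2.05 and 2.95 and ATX minus LPA2 between 1.12 and 2.11. LPA3 minus LPA1 lay between −2.35 and −1.35. ATX minus LPA1 was 0.22 after scale normalization, LPA2 minus LPA1 was −1.58 on slides 1 to 4 only and −0.44 on slides 5 and 6 only, and LPA3 minus LPA2 was −0.60 with each slide as a block. Groups next to each other in the order ATX, LPA1, LPA2, LPA3 had ranges that overlapped, while the ranges of groups farther apart in it did not overlap.

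**Figure D1:**
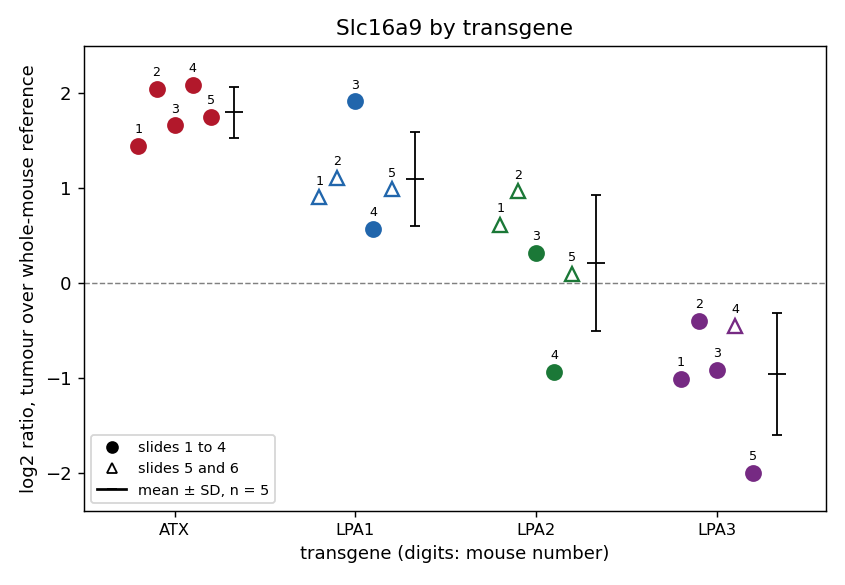
Slc16a9 log2 ratio (vertical axis, tumour over whole-mouse reference) in each tumour by transgene, with the mouse number at each point, filled circles for slides 1 to 4, open triangles for slides 5 and 6, and the mean ± SD of 5 tumours in black. LPA1 mouse 4 is the mean of its arrays on slides 4 and 7. The ATX tumours (mean 1.80) sit at the top and the LPA3 tumours (mean −0.96) at the bottom, and all ATX tumours lie on slides 1 to 4.

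The Slc16a9 values were also read within slides. The order was read from these same values, so the count that follows describes them and is no separate evidence. Of 19 pairs of tumours that shared a slide and differed in transgene, 17 had the higher Slc16a9 value in the genotype that came first in the order ATX, LPA1, LPA2, LPA3. On slide 3 the ATX tumours had 1.75 and 2.09, the LPA2 tumour 0.32 and the LPA3 tumour −0.40. On slide 5 the LPA1 tumours had 0.90 and 0.99, the LPA2 tumour 0.10 and the LPA3 tumour −0.45. On both slides the tumours of each transgene were separate from those of the next. The 2 exceptions among the pairs were LPA2 mouse 4 below LPA3 mouse 3 on slide 2 and ATX mouse 1 below LPA1 mouse 3 on slide 4.

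Within each slide set the group means kept that order. On slides 5 and 6 the Slc16a9 mean was 1.00 ± 0.10 in LPA1 tumours (SD, n = 3), 0.56 ± 0.44 in LPA2 tumours (n = 3) and −0.45 in the LPA3 tumour. On slides 1 to 4 it was 1.80 ± 0.27 in ATX (n = 5), 1.26 ± 0.92 in LPA1 (n = 2), −0.31 ± 0.89 in LPA2 (n = 2) and −1.08 ± 0.67 in LPA3 tumours (n = 4). With the slide set as a covariate the ATX minus receptor difference was 1.86 and with each slide as a block 1.40, beside 1.68 without either.

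The gene whose pattern over the 20 tumours was nearest to that of Slc16a9 was Hacd3, an enzyme of very long chain fatty acid synthesis (Pearson r 0.94). Esr1, the oestrogen receptor alpha, followed at 0.92. The remaining 8 of the 10 nearest genes were Mtfmt, Zbtb5, Sostdc1, Sirt4, Cish, Zfp1, Lpar6 and Mlst8, at 0.82 to 0.87. The lowest r was that of Vat1 (−0.90), followed by Gnb2, Tars2, Polr2f and Ddit3 at −0.87 to −0.84. These correlations are descriptions over 20 tumours that share slides and transgene means, picked from the 18935 genes measured in all 20 tumours.

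Esr1 had group means of 2.87 ± 0.87 in ATX, 1.77 ± 0.28 in LPA1 tumours, 0.63 ± 0.86 in LPA2 tumours and −0.13 ± 0.49 in LPA3 tumours (SD, n = 5 each), the same order as Slc16a9. Within slides 5 and 6, which held no ATX tumour, its r with Slc16a9 was 0.99 (7 tumours), and within slides 1 to 4 it was 0.92 (13 tumours). Hacd3 had 0.60 on slides 5 and 6 and 0.96 on slides 1 to 4. Sostdc1, a secreted antagonist of Wnt and BMP signals, had 0.03 on slides 5 and 6 against 0.86 on slides 1 to 4. The differences of r between slide sets, over 7 and 13 tumours, were not tested.

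Markers of hormone-sensing epithelium were followed beside Slc16a9. The list holds Esr1 and was chosen with earlier results of these data known, so its counts and tests are no separate evidence. Of 8 measured list genes, 8 were higher in ATX than in the mean of the receptors, and the median difference was 1.53, against −0.04 for all genes tested, of which 45.6% were higher. Other epithelial lists lay the same way, with 9 of 9 myoepithelium and basal keratinocyte genes higher (median 0.95), 8 of 9 milk genes (2.07) and 9 of 11 luminal epithelium genes (0.50), and with 0 called genes in each. So did B and plasma cells (4 of 4, 0.47), T and NK cells (5 of 6, 0.51) and endothelium (5 of 6, 0.14). Few genes were higher for macrophages (2 of 7), neutrophils (0 of 5), fibroblasts (2 of 7) and adipocytes (1 of 8). The same held for skeletal muscle (0 of 9), liver (0 of 8), brain (0 of 7) and kidney (1 of 5). In the hormone-sensing list, Esr1 (adjusted p = 0.0159, limma) and Tnfsf11, the RANK ligand (difference 3.74, adjusted p = 0.0122), passed the test, as did 0.0996% of all genes. Both passed with the slide set as a covariate (Esr1 2.36, adjusted p = 0.0107, and Tnfsf11 4.05, adjusted p = 0.0106, limma), where 27 genes were called. Neither passed with each slide as a block (Esr1 2.05, adjusted p = 0.2, and Tnfsf11 3.68, adjusted p = 0.238) or on slides 1 to 4 only (2.36 and 4.09, adjusted p = 0.109 for both), settings in which 0 of all genes were called. The mean log2 ratio of the hormone-sensing list per tumour ranged from 0.04 to 2.56 in ATX, from −0.58 to 0.71 in LPA1 tumours, from −0.55 to 0.19 in LPA2 tumours and from −0.82 to −0.41 in LPA3 tumours. ATX mouse 1 had the lowest list mean of the ATX tumours (0.04) and a Slc16a9 value of 1.45, while ATX mouse 2 had 2.56 and 2.05. Other tumours ran otherwise. LPA1 mouse 3 had the lowest list mean of the LPA1 tumours (−0.58) and their highest Slc16a9 value (1.92). ATX mouse 5 had a list mean of 0.74 and a Slc16a9 value of 1.75, against 2.25 and 1.66 in ATX mouse 3. The part of these cell types in the Slc16a9 values was not tested.

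**Figure D2:**
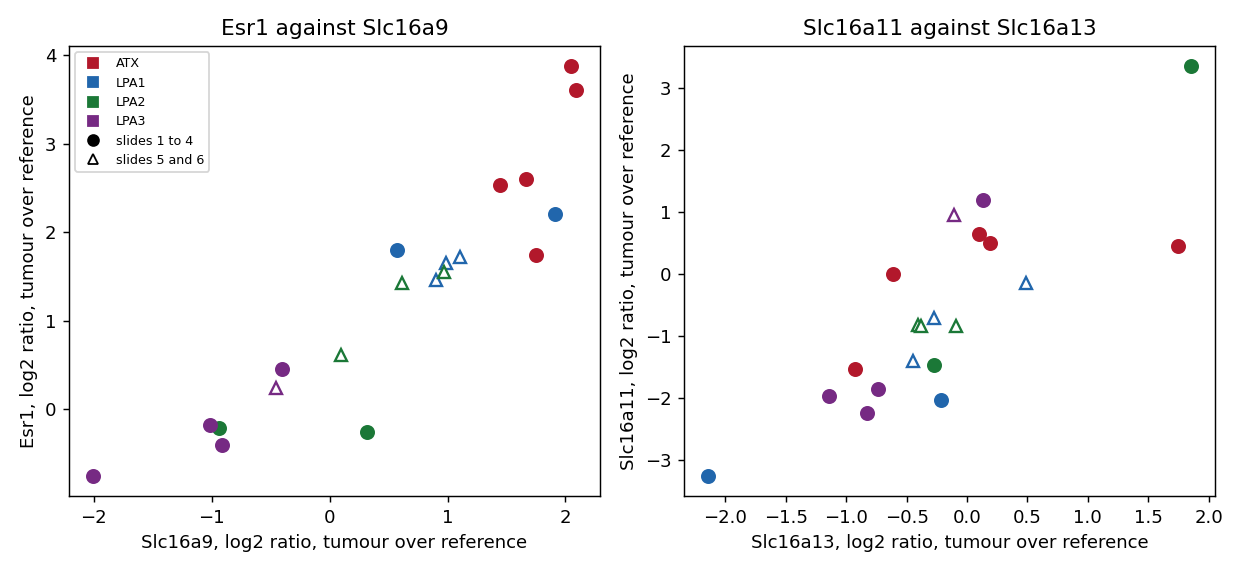
Left, Esr1 (vertical axis) against Slc16a9 (horizontal axis), and right, Slc16a11 against Slc16a13, as log2 ratios of tumour over reference, with 1 point per tumour, coloured by transgene, filled for slides 1 to 4 and open for slides 5 and 6. Points rise together in both panels (r 0.92 and 0.82 over 20 tumours), and in the left panel the ATX tumours sit at the top right and the LPA3 tumours at the bottom left.

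The other 7 genes were compared between transgenes in a limma fit of all 19069 genes, with p-values adjusted over all of them. None of the 7 passed in the F test over the 4 genotypes (0.0315% of all genes passed) and none in ATX minus the mean of the receptors (0.0996%). The share of all genes called was 0% for ATX minus LPA1, 0.00524% for ATX minus LPA2 and 0.0996% for ATX minus LPA3, with 0 of the 7 called in each. It was 0% for LPA2 minus LPA1, 0.00524% for LPA3 minus LPA1 and 0% for LPA3 minus LPA2, again with 0 of the 7. At an unadjusted p under 0.05, 1 of the 7 passed in the F test, in ATX minus the receptors and in each of the 3 comparisons of ATX with a single receptor, and 0 in the receptor pairs. That gene was Slc16a10 each time. Of all genes, 10.9% passed that threshold in the F test, 12.7% in ATX minus the receptors and 8.99% to 12.6% in the comparisons of ATX with a single receptor. In the receptor pairs it was passed by 3.66% of all genes for LPA2 minus LPA1, 9.2% for LPA3 minus LPA1 and 9.32% for LPA3 minus LPA2.

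Slc16a10 encodes a carrier of aromatic amino acids that also moves thyroid hormone. The ATX tumours had −0.65, −1.97, −1.86, −1.91 and −1.12. The LPA1 tumours had 0.01, −0.17, −1.90, −0.45 and −0.35. The LPA2 tumours had −0.45, 0.21, −0.84, −0.68 and −0.05, and the LPA3 tumours −1.28, 0.94, −0.86, 0.83 and −0.31. All 5 ATX tumours were below the reference, and 10 of the 15 receptor tumours lay above the highest ATX tumour, with the other 5 inside the ATX range.

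The group means of Slc16a10 were −1.50 ± 0.59 in ATX, −0.57 ± 0.76 in LPA1 tumours, −0.36 ± 0.44 in LPA2 tumours and −0.14 ± 0.99 in LPA3 tumours (SD, n = 5 each). ATX minus the receptors was −1.14 (SE 0.36, 95% interval −1.89 to −0.40, adjusted p = 0.213 by limma), which did not pass. On slides 1 to 4 alone the difference was −0.76 (adjusted p = 0.817). With limma's array weights it was −1.39 and passed (adjusted p = 0.00325), in a fit that called 3232 genes (16.9%) against 19 without weights. LPA1 mouse 3 stood apart from the other LPA1 tumours at −1.90. Slc16a9 and Slc16a10 had an r of −0.49 over the 20 tumours.

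Slc16a10 had 4 probes. Their r with each other lay between 0.30 and 0.59, and 3 of the 4 averaged −1.004 to −0.70 against the reference while the fourth, probe 3, averaged −0.05 and ranged from −3.33 to 3.99. Each of the 4 had its lowest group mean in ATX tumours, from −2.35 for probe 2 to −0.72 for probe 3.

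Slc16a1, Slc16a3 and Slc16a7 are lactate and pyruvate carriers. Slc16a1, the widely expressed carrier known as MCT1, averaged −0.65 ± 0.92 in ATX, −0.02 ± 0.24 in LPA1 tumours, −0.26 ± 1.34 in LPA2 tumours and −0.23 ± 0.46 in LPA3 tumours (SD, n = 5 each). Its ATX minus receptor difference was −0.48 (95% interval −1.35 to 0.39, adjusted p = 0.672 by limma). Array weights moved it to −0.97 (adjusted p = 0.0367), while slides 1 to 4 alone gave −0.08. The lowest tumour was LPA2 mouse 3 at −2.50 and the highest LPA2 mouse 2 at 0.81, so the LPA2 group spanned all other groups.

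Slc16a7, the high-affinity carrier MCT2, averaged −0.57 ± 0.26 in ATX, −0.32 ± 0.72 in LPA1 tumours, 0.00 ± 1.10 in LPA2 tumours and −0.16 ± 0.65 in LPA3 tumours (SD, n = 5 each). All 5 ATX tumours were below the reference, but 7 of the 15 receptor tumours lay inside their range. The difference of ATX from the receptors was −0.41 (95% interval −1.18 to 0.36), which leaves values on both sides of 0.

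Slc16a3 is MCT4, the lactate exporter of strongly glycolytic cells such as fast muscle fibres. The ATX tumours had −2.96, −4.07, −2.33, −2.37 and 1.34. The LPA1 tumours had −0.65, −1.56, −1.56, −2.43 and −1.12. The LPA2 tumours had −1.87, −1.001, −2.45, −0.15 and −0.19, and the LPA3 tumours −2.63, −0.56, −1.44, −0.51 and −1.95. ATX mouse 5 was the only tumour of 20 above the reference, and all 15 receptor tumours lay inside the ATX range that it widened.

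The Slc16a3 difference of ATX from the receptors was −0.74 (95% interval −2.01 to 0.53, adjusted p = 0.651 by limma), and −1.59 without ATX mouse 5 (adjusted p = 0.15). The genes nearest to Slc16a3 were Mab21l4 (r 0.81) and S100a8, a neutrophil calcium-binding protein (r 0.80), at 0.35 and 0.49 within slides 5 and 6. The 5 measured neutrophil markers averaged 2.11 in ATX mouse 5 and −3.44 to −2.15 in the other ATX tumours. Over the groups the neutrophil list ranged from −3.51 to −0.61 in LPA1 tumours, from −2.25 to 0.11 in LPA2 tumours and from −1.89 to −0.44 in LPA3 tumours. The 8 hypoxia genes averaged 1.51 in ATX mouse 5 and −0.69 to −0.22 in the other ATX tumours. They reached 1.46 in LPA2 mouse 4 and 1.07 in LPA3 mouse 2, whose Slc16a3 values were −0.15 and −0.56. ATX mouse 5 also stood apart in B and plasma cell genes (3.22, other ATX tumours 0.84 to 1.13) and fibroblast and collagen genes (−0.80, others −2.52 to −2.06). The part of any of these lists in the Slc16a3 value of ATX mouse 5 was not tested.

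Slc16a12 encodes a creatine transporter. The ATX tumours had 4.06, 0.27, −0.22, 0.27 and 0.60. The LPA1 tumours had 0.51, 0.97, 0.94, −0.55 and 0.48. The LPA2 tumours had 2.98, 2.72, −0.90, 0.14 and 1.67, and the LPA3 tumours 0.30, 2.92, −0.59, −0.94 and 0.00. The highest values were thus in ATX mouse 1, LPA2 mice 1 and 2 and LPA3 mouse 2, each in a group whose other tumours reached lower.

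Slc16a12 had the widest spread within transgenes of the 8 genes (pooled SD 1.46, against 0.56 for Slc16a9). Its difference of ATX from the receptors was 0.28 (95% interval −1.17 to 1.74) and −0.48 without ATX mouse 1. Adipocyte markers, 8 measured, averaged 1.41 in ATX mouse 1 and −3.42 to −0.80 in the other ATX tumours. That list ranged from −3.00 to 1.05 in LPA1 tumours, from −2.33 to 0.86 in LPA2 tumours and from −3.41 to −1.01 in LPA3 tumours. In LPA2 mice 1 and 2, with Slc16a12 values of 2.98 and 2.72, it averaged 0.23 and 0.86, the highest of the LPA2 tumours. In LPA3 mouse 2, with a Slc16a12 value of 2.92, it averaged −2.92. The part of adipocytes in these values was not tested.

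Slc16a6, which exports a ketone body from the liver in zebrafish, and Slc16a13, a less studied member, were not called against the reference. The 2 Slc16a6 probes lay on opposite sides of it (means −1.10 and 0.94), so the Slc16a6 means that follow stand for neither probe. Slc16a6 averaged 0.21 ± 1.28 in ATX, −0.49 ± 0.75 in LPA1 tumours, −0.13 ± 0.75 in LPA2 tumours and 0.09 ± 0.76 in LPA3 tumours. Slc16a13 averaged 0.10 ± 1.03 in ATX, −0.52 ± 0.97 in LPA1 tumours, 0.14 ± 0.96 in LPA2 tumours and −0.54 ± 0.53 in LPA3 tumours (SD, n = 5 each for both genes). The differences of ATX from the receptors were 0.39 (95% interval −0.54 to 1.32) and 0.40 (95% interval −0.51 to 1.32), with adjusted p = 0.767 and adjusted p = 0.749 by limma. Without ATX mouse 5 they were −0.04 for Slc16a6 and −0.01 for Slc16a13. The 2 probes of Slc16a6 gave −0.03 and 0.80 when fitted singly.

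**Figure D3:**
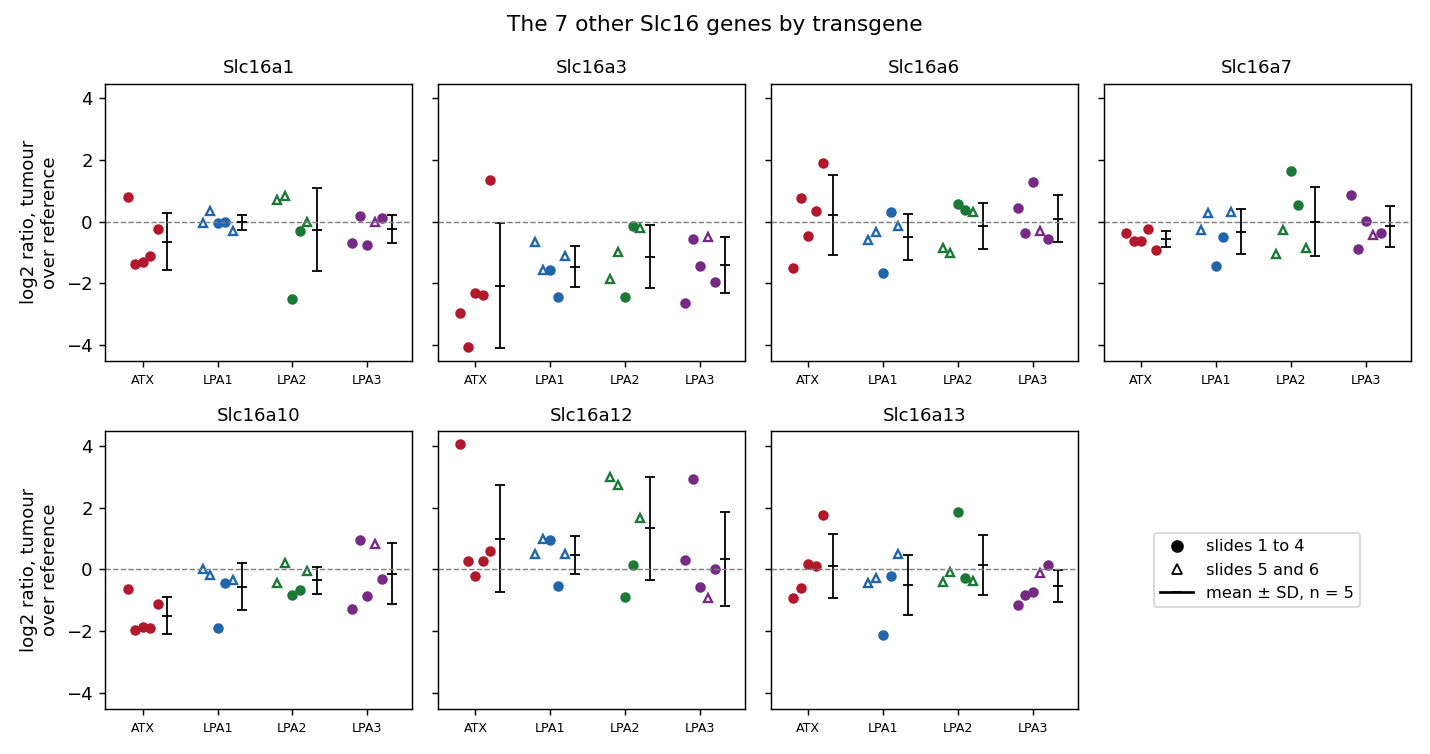
Log2 ratio (vertical axis, tumour over whole-mouse reference) of the 7 other Slc16 genes in each tumour by transgene, with filled circles for slides 1 to 4, open triangles for slides 5 and 6 and the mean ± SD of 5 tumours in black. Slc16a10 is lowest in ATX tumours (mean −1.50) with ranges that overlap, and single tumours such as ATX mouse 1 for Slc16a12 (4.06) stand far from their group.

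Genes of related pathways were read beside the family. Of the other Slc16 genes, 4 were measured (Slc16a4, Slc16a8, Slc16a11 and Slc16a14), and 0 of the 4 passed in the F test or in ATX minus the receptors. The partner glycoproteins Bsg, Emb and Nptn gave 0 of 3 in both. Emb, embigin, had a difference of 1.31 (adjusted p = 0.235) with means of 1.43 ± 1.02 in ATX, 0.12 ± 1.00 in LPA1 tumours, −0.01 ± 0.42 in LPA2 tumours and 0.25 ± 0.95 in LPA3 tumours. Bsg, basigin, had −0.42 (adjusted p = 0.555).

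Lists of the substrates' metabolism also gave 0 called genes between transgenes by limma. These were lactate and pyruvate metabolism (18 genes, median of ATX minus the receptors −0.14), glycolysis and glucose uptake (15, −0.10), ketone bodies (4, −0.22), carnitine (14, −0.15), creatine (7, −0.76), large neutral amino acid transport (8, −0.13), thyroid hormone handling (9, −0.47), taurine (4, 0.03) and the sodium-coupled carriers with the lactate receptor (3, −0.40). The median of all genes tested was −0.04. Few genes of any kind were called in this comparison (0.0996%), so these counts of 0 say little about any list. Of the 14 carnitine genes, 4 were higher in ATX tumours, against 45.6% of all genes. The count was 3 of 18 for lactate and pyruvate, 5 of 15 for glycolysis, 0 of 4 for ketone bodies and 0 of 7 for creatine. It was 3 of 8 for large neutral amino acids, 1 of 9 for thyroid hormone, 2 of 4 for taurine and 1 of 3 for the sodium-coupled list.

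Against the whole-mouse reference, 4 of the 8 genes were called, with 52.8% of all genes called in this comparison. Slc16a3 and Slc16a10 were lower (27.1% of all genes were called lower) and Slc16a9 and Slc16a12 higher (25.7% were called higher). The share of the 8 is near that of all genes, and the median of the 8 was −0.23 against 0.01 for all genes. The comparison sets tumour against RNA of every organ of the mouse and not against normal mammary gland.

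Slc16a3 was −1.52 (SE 0.26, adjusted p = 7e-05 by limma) and lay below the reference in 19 of 20 tumours. Beside it, 9 of 9 skeletal muscle genes were lower than the reference (median −2.42), with list means of −4.19 to −1.06 in ATX, −3.82 to 0.54 in LPA1 tumours, −3.18 to 0.00 in LPA2 tumours and −3.61 to −0.60 in LPA3 tumours. The part of muscle in the reference was not tested. Slc16a10 was −0.64 (SE 0.15, adjusted p = 0.00167) and below in 16 of 20.

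Slc16a9 was 0.54 over all tumours (SE 0.12, adjusted p = 0.00107), a mean over groups that lay on both sides of 0. Slc16a12 was 0.78 (SE 0.30, adjusted p = 0.0358) and above the reference in 14 of 20 tumours. Slc16a1 (−0.29), Slc16a6 (−0.08), Slc16a7 (−0.26) and Slc16a13 (−0.20) did not pass, with adjusted p = 0.177 to 0.755.

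**Figure D4:**
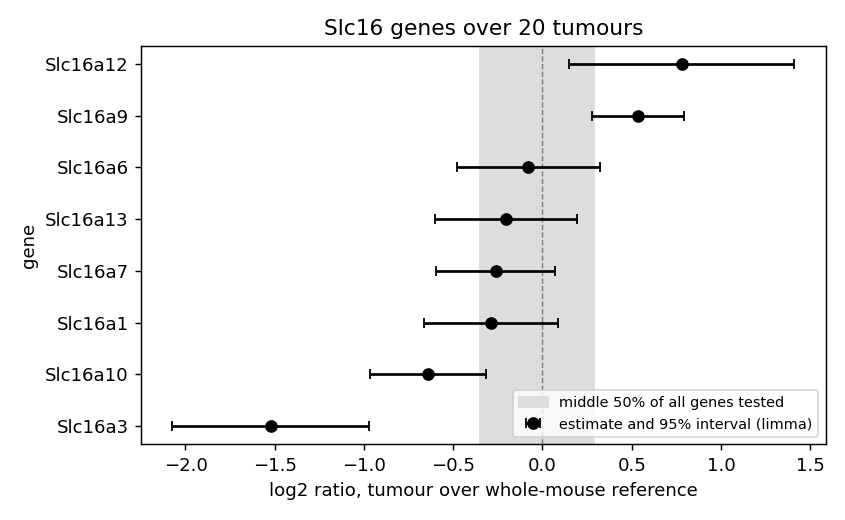
Mean log2 ratio of tumour over reference over the 4 transgenes for each Slc16 gene (horizontal axis, genes on the vertical axis), with the 95% interval of the limma fit as bars and the middle 50% of all genes tested as a grey band. Slc16a3 at −1.52 and Slc16a12 at 0.78 are the ends of the range.

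The calls against the reference depended on which slides were read, and fewer of all genes were called on slides 1 to 4 alone (45.8%) than over all tumours (52.8%). On slides 1 to 4 alone Slc16a3 (−1.74) and Slc16a10 (−0.93) were called, and on slides 5 and 6 alone, a setting added after the data were seen, Slc16a3 (−0.88, adjusted p = 0.0486 by limma) and Slc16a12 (0.72, adjusted p = 0.0444) were. Slc16a10 was 0.19 on slides 5 and 6 alone (adjusted p = 0.296), an equal-weight mean of 3 groups that rests on the 1 LPA3 tumour (0.83). There the LPA1 mean was −0.17, the LPA2 mean −0.09 and the mean over the 7 tumours 0.00, with 4 of 7 below 0. The call of Slc16a12 was lost with slide as a block (0.69, adjusted p = 0.106), on slides 1 to 4 (0.39) and without ATX mouse 1, LPA1 mouse 2 or 3, LPA2 mouse 1, 2 or 5, or LPA3 mouse 2 (adjusted p = 0.0544 to 0.0717).

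The difference of slides 5 and 6 minus slides 1 to 4 within transgenes was not called for any of the 8 genes, with 8.72% of all genes called. At an unadjusted p under 0.05, 1 of the 8 passed, Slc16a10 (0.89, adjusted p = 0.12 by limma), and 21.8% of all genes did. It was called without LPA3 mouse 2 (0.99, adjusted p = 0.0438). For Slc16a9 this difference was 0.38 (SE 0.30).

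Probes of the same gene disagreed in their log2 ratios for Slc16a6, Slc16a1, Slc16a7 and, as given above, Slc16a10. Slc16a6 had 1 probe with a mean of −1.10, below the reference in 18 of 20 tumours, and another with a mean of 0.94, above it in 17. The second was higher in 20 of 20 tumours, by 0.77 to 3.01 with a median of 2.19, while both moved together (r 0.71). Their mean, −0.08, therefore stands for neither probe. Both carry RefSeq transcript accessions of Slc16a6, and fitted singly each passed against the reference, in opposite directions.

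For Slc16a1, probes 1 and 3 moved together (r 0.97) at means of −0.66 and −0.46, while probe 2 had 0.25 (r 0.58 with either). The probes of Slc16a7 averaged 0.19 and −0.72 with an r of 0.36. With each probe on its own, at least 1 probe of 7 of the 8 genes passed against the reference, 10 of 15 probes in all, and 46.2% of all features passed. Slc16a3, Slc16a9, Slc16a12 and Slc16a13 had 1 probe each, so no other probe stands beside the Slc16a9 values.

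**Figure D5:**
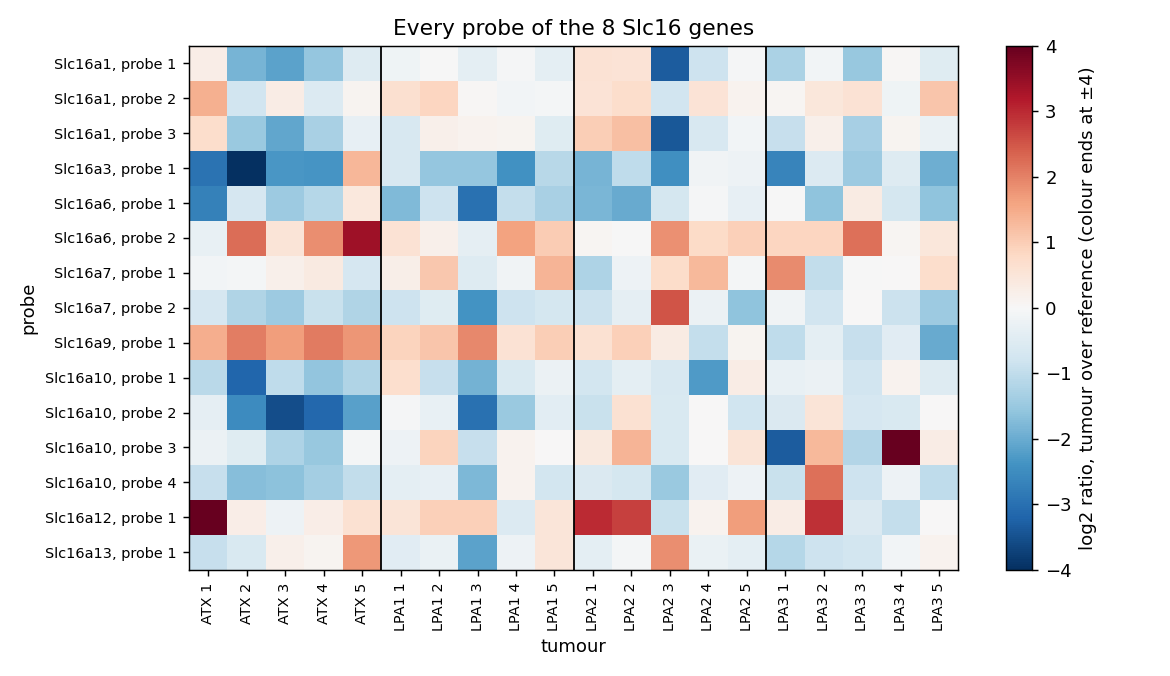
Log2 ratio (colour, red above and blue below the reference, ending at ±4) of each of the 15 probes (rows) in each of the 20 tumours (columns, grouped as ATX, LPA1, LPA2 and LPA3). The row of Slc16a9 is red in all ATX tumours and blue in all LPA3 tumours, and the 2 rows of Slc16a6 differ in colour in most tumours.

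The 8 genes did not share a pattern over the tumours. Of 28 pairs, 15 had an r above 0, the median was 0.03 and the range −0.53 (Slc16a6 with Slc16a12) to 0.67 (Slc16a1 with Slc16a12). The nearest gene to Slc16a1 was Dab2, an endocytic adaptor (r 0.93), followed by Fam20c (0.89), a kinase of secreted proteins. Slc16a6 had Gas6 (0.83) and Arc (0.83), Slc16a7 had Oit1 (0.80) and Slc26a6 (0.79), and Slc16a10 had Hsd17b2 (0.86) and Camk2d (0.84). Slc16a12 had 4930519F09Rik (0.90) and Mapk4 (0.88).

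The genes nearest to Slc16a13 were Cyp2s1 (r 0.88) and another member of the family, Slc16a11 (0.82). Slc16a11 and Slc16a13 are adjacent genes on chromosome 11 in the RefSeq annotation, with 0 genes between them. Both were highest in LPA2 mouse 3 (1.85 for Slc16a13 and 3.34 for Slc16a11) and lowest in LPA1 mouse 3 (−2.14 and −3.26). Without the 2 tumours farthest from the median the r was 0.78, and within slides 5 and 6 it was 0.49.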

How the data were processed

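The values used are the authors' deposited log2 ratios, tumour (Cy5) over whole-mouse total RNA (Cy3), 1 per feature and array, on 21 Agilent 2-colour arrays of 20 tumours. The labels name the Qiagen RNeasy kit for extraction. Scanner processing, normalization and the log base are not given in the sources used here; the base was taken as 2. Each array had a median of 0. No signal over background was in the table, so no filter on dim probes was made, and 7 of 315 values of the Slc16 probes are exactly 0. The number of arrays limits the precision.

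Probes with 1 gene symbol (33653 features) were averaged per gene. The 2 arrays of LPA1 mouse 4 were averaged, with the repeat used where slide was a term. The slide was inferred from a number in the array titles, which do not call it a slide. Genes with values in at least 4 tumours of every genotype (19069) were fitted with limma 3.58.1 (lmFit, eBayes, 16 residual degrees of freedom) in R 4.3.3, with a call where the p-value after Benjamini-Hochberg adjustment was under 0.05. The fit was tested on simulated data. Promoters come from RefSeq tables (GRCm38.p6), and figures were drawn with matplotlib 3.10.9 in Python 3.11.15.

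The genes, lists, motifs and tests were chosen with earlier results of these data known. Named genes were the 8 genes with every probe, the 10 highest and 5 lowest correlations with Slc16a9, the 2 highest for each other gene, and every called gene of the pathway lists. Genes in the text outside that rule were chosen after their values were seen. Alternatives covered slide terms and subsets, each tumour left out, a mouse number block, probe summaries, normalization, array weights, the repeat array, missing and exact 0 values, and the empirical Bayes setting.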

Additional observations from a re-analysis of the deposited data

Results flagged for a closer look

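In 3 of the 32 sets of 5 tumours (8 genes in 4 transgenes), 1 tumour stood far from the others by Dixon's criterion (0.71 for 5 samples), and chance alone flags about 1 in 20 such sets. Slc16a10 was −1.90 in LPA1 mouse 3, with the other LPA1 tumours at −0.45 to 0.01. Slc16a12 was 4.06 in ATX mouse 1, with the other ATX tumours at −0.22 to 0.60. Slc16a13 was 1.85 in LPA2 mouse 3, with the other LPA2 tumours at −0.40 to −0.09.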

How the results depend on the processing

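The count of 4 genes called against the reference became 2 on slides 1 to 4 only, 2 on slides 5 and 6 only (chosen after seeing the data), 7 with each probe on its own, and 3 to 5 when each tumour was left out in turn. The share of all genes called was 45.8% on slides 1 to 4 only against 52.8% in the main fit, and 46.2% of all features with each probe on its own. For the other settings of this count the share is not given here. On slides 5 and 6 only, Slc16a10 was 0.19 against the reference, with its sign reversed. That value rests on the single LPA3 tumour there (0.83), since the mean over the 7 tumours was 0.00. With array weights, the 0 of 7 genes called became 2 in the F test and 2 in ATX minus the receptors (Slc16a1 and Slc16a10 in both), and the transgene pairs gave 5 calls in place of 0 (3 for Slc16a10, 1 for Slc16a1 and 1 for Slc16a12). The share of all genes called in ATX minus the receptors was then 16.9% against 0.0996%, and the F test called 4409 genes (23.1%) against 6. In the pairs, array weights called 11.6% of all genes for ATX minus LPA1, 16.5% for ATX minus LPA2 and 8.43% for ATX minus LPA3. The share was 0% for LPA2 minus LPA1, 6.37% for LPA3 minus LPA1 and 9% for LPA3 minus LPA2. On slides 1 to 4 only, and likewise with a term for each slide, 0 of all genes were called in the F test and 0 in ATX minus the receptors, which had 6 and 19 calls without it. Leaving out 1 tumour kept these counts of the 7 genes at 0. In slides 5 and 6 minus slides 1 to 4 the count of 0 became 1 without LPA3 mouse 2, a range of 0 to 1.

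The mouse numbers only name mice. Same-numbered tumours of different transgenes had correlations of their deviations from −0.35 to 0.32 (median 0.00, 30 pairs), and the fit with mouse number as a replicate block gave 4 genes against the reference and 0 in the other comparisons. The Slc16a9 difference of ATX from the receptors ranged from 1.25 (scale normalization) to 1.86 over all alternatives run. ATX minus LPA1 ranged from 0.22 to 0.93, LPA2 minus LPA1 from −1.58 to −0.44, and LPA3 minus LPA2 from −1.47 to −0.60. The reference calls of Slc16a9 missed the threshold on slides 1 to 4 only (0.42, adjusted p = 0.068 by limma) and on slides 5 and 6 only (0.37, adjusted p = 0.0889), and Slc16a7 passed without LPA2 mouse 3 (−0.36, adjusted p = 0.0318). Signal over background was not in the deposited table, so dim probes could not be told from bright ones.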

Other observations

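Carriers of the same substrates outside the family differed from the reference in both directions. Slc5a8, a sodium-coupled carrier of lactate and short-chain fatty acids, was 1.48 against the reference (SE 0.24, adjusted p = 2.86e-05 by limma) and above it in 17 of 20 tumours. Of 7 creatine genes, 7 were called lower, among them the transporter Slc6a8 (−0.61) and the muscle kinase Ckm (−2.83), while 27.1% of all genes were called lower. Skeletal muscle markers, of which Ckm is also one, were called lower in 9 of 9 (median −2.42) and liver markers in 8 of 8 (median −3.12), and the part of these organs of the reference in the creatine and carnitine counts was not tested. Of 14 carnitine genes, 10 were called lower and 1 higher, among the lower ones the carnitine transporter Slc22a5 (−0.54, below the reference in 20 of 20 tumours). Of 18 lactate and pyruvate genes, 8 were called lower, such as Pdk4, a kinase that inhibits pyruvate dehydrogenase (−1.99), and 3 higher, such as the malic enzyme Me1 (1.44) and Ldhd (0.83), each above the reference in 20 of 20 tumours.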
